A study of Mus musculus with 28 samples.

Results

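The tricarboxylic acid (TCA) cycle and mitochondrial fatty acid oxidation were followed at the transcript level in DC2 cells, an immortalized mouse epithelial line of the epididymis (its distal caput), the duct in which sperm mature. The genes were chosen by symbol, as 19 genes of the TCA cycle (pyruvate carboxylase counted with it) and 18 of fatty acid oxidation. All 37 had a row in the deposited table and were among the 13128 genes tested. The title of the series places these cells in work on stress and sperm respiration. Confluent monolayers on collagen were given 500 ng/ml corticosterone dissolved in ethanol, or 0.1% ethanol alone as vehicle (corticosterone is the chief glucocorticoid in mice), and the medium was changed on days 3 and 6. Corticosterone libraries came from day 3 (the end of the exposure), day 6 (3 days after it) and day 9 (6 days after it), and vehicle libraries came from the same days. Untreated cells were taken on day 0, and the labels call their libraries vehicle as well. Each of these 7 groups had 4 libraries of polyadenylated RNA, 28 in all. The labels give the libraries of a group different replicate numbers without saying whether they were separate cultures, so p-values measure only the spread between these libraries.

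The TCA cycle oxidizes acetyl-CoA in the mitochondrial matrix and hands the electrons to the respiratory chain, and one of its enzymes, succinate dehydrogenase, is also a complex of that chain. Fatty acid oxidation supplies acetyl-CoA to the cycle: the carnitine shuttle carries long acyl chains into mitochondria, and rounds of dehydrogenation, hydration, a second dehydrogenation and thiolysis shorten them, while electron transfer flavoproteins take up the electrons of the first step. In the epididymis, epithelial cells set the fluid in which sperm are stored, and epithelial mitochondria serve the transport work this takes.

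Values are the authors' normalized log2 CPM (reads of a gene relative to all reads of its library). Differences are log2 changes ± SE from limma, fitted to all 28 libraries and all 13128 genes, and a gene was called at a Benjamini-Hochberg adjusted p under 0.05. As a check of the labels, Fkbp5, a co-chaperone of the glucocorticoid receptor and a textbook target of it, was higher by 3.05 ± 0.12 at day 3. Of 8 epithelial markers 6 were in the table (Cldn3 and Cldn7 were not), and of the epididymal markers Pax2 and Pax8 were, while the secretory genes Crisp1, Gpx5, Lcn5, Lcn8, Lcn9, Rnase10, Adam7, Cst11 and Defb42 had no row. So the labelled cell type can be checked here on general epithelial genes and these transcription factors, not on secretory genes. At day 6 the 6 epithelial genes summed to 53.2 to 62.6 CPM in corticosterone and 61.0 to 64.5 CPM in vehicle libraries. Of the 6, 2 were higher and 2 lower, where 22.9% of all genes were higher and 24.3% lower. Cdh1 was at -1.63 and Krt18 at -0.74, whereas Cldn4 was at 0.55. Mitochondrially encoded genes took 6.59 to 7.44% of CPM in corticosterone and 5.19 to 5.46% in vehicle libraries at day 3, 8.16 to 9.16% and 5.40 to 5.81% at day 6, and 6.28 to 6.99% and 5.64 to 6.096% at day 9. The summed level of the 3 measured leukocyte markers (Cd68, Csf1r and Cd14; Ptprc, Adgre1 and Cd3e had no row) was 34.6 to 49.2 CPM in corticosterone and 68.6 to 74.4 CPM in vehicle libraries at day 3, and that of the 4 measured fibroblast markers was 86.3 to 108 CPM and 20.9 to 25.1 CPM, with Dcn higher by 2.76 and Col1a1 at -1.38 on the log2 scale. Leukocyte sums were 36.2 to 45.4 CPM in corticosterone and 92.6 to 103.7 CPM in vehicle libraries at day 6. At day 9 they were 91.6 to 95.4 and 133.3 to 149.3 CPM. Fibroblast sums were 51.8 to 59.5 and 29.9 to 33.6 CPM at day 6, and 42.6 to 48.4 and 34.8 to 38.6 CPM at day 9. The part of these shares and markers in the results was not tested.

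Corticosterone was followed by higher transcript levels along almost the whole of both pathways. The changes of single genes ran at day 3 between 0.24 and 0.89 (log2) in the TCA cycle and between -0.14 and 0.96 in fatty acid oxidation. At day 3 all 19 TCA genes rose, with a median log2 change of 0.51, and 15 of 18 fatty acid oxidation genes rose, with a median of 0.35, where 23.3% of all genes tested rose, 25.6% fell (49.0% in all) and the median was -0.01. At day 6, after 3 days without the hormone, 18 TCA genes (median 0.58) and 15 fatty acid oxidation genes (median 0.41) were higher, against 22.9% of all genes higher and 24.3% lower (47.2% in all). At day 9 it was 17 TCA genes (median 0.35) and 12 fatty acid oxidation genes (median 0.26), against 14.1% of all genes higher and 14.4% lower (28.5% in all). No fatty acid oxidation gene fell on any day, and 1 TCA gene, Pcx, fell at day 9. In bulk RNA, fewer cells of a type and less RNA per cell cannot be told apart.

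**Figure D1:**
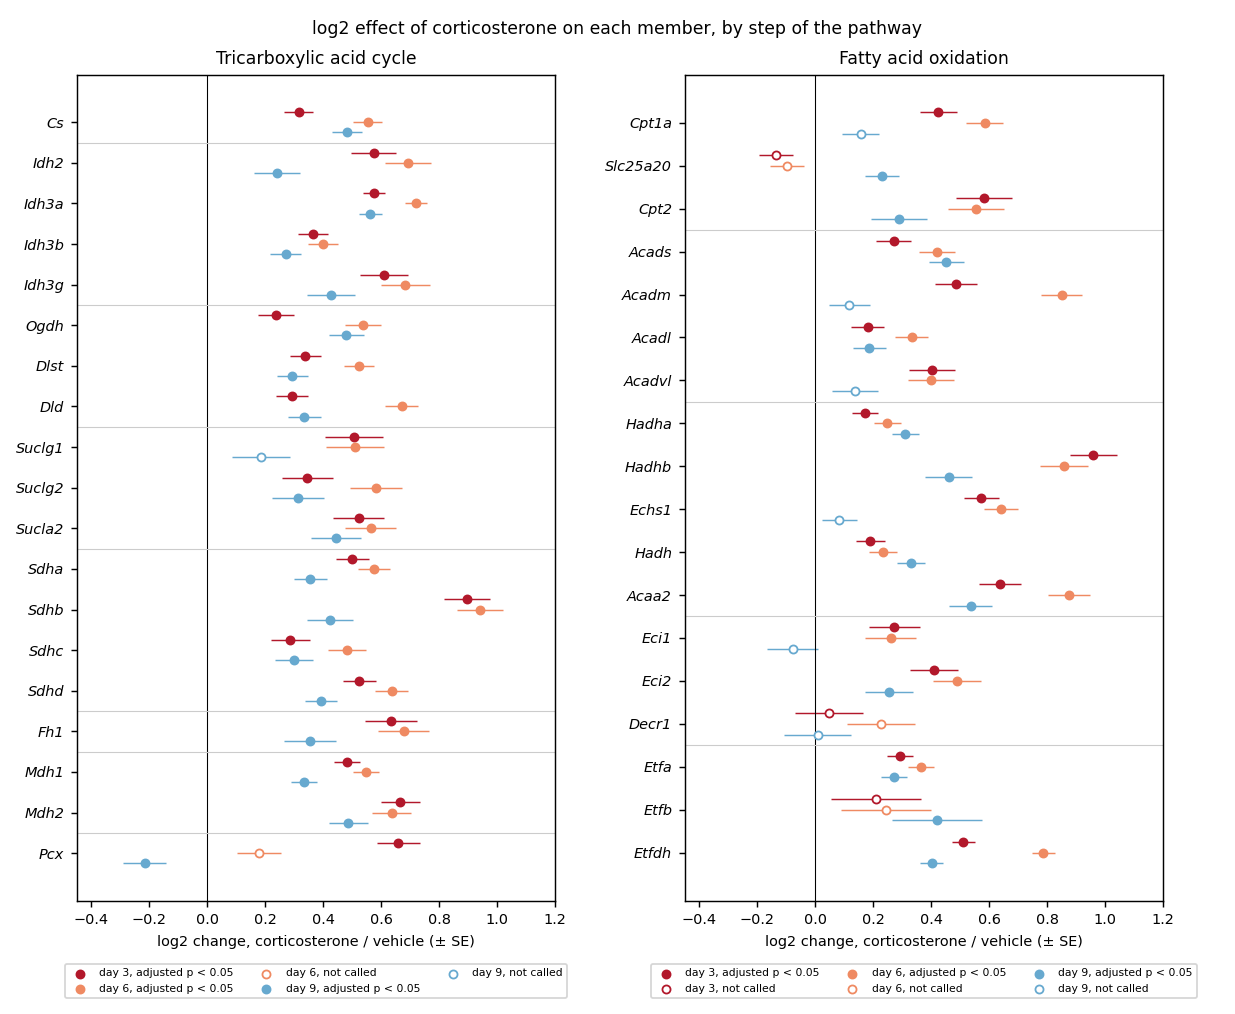
The log2 change of each member, corticosterone over vehicle, with its SE, in order of pathway step from top to bottom; colours are days 3, 6 and 9, filled points are called and open points are not. In the TCA cycle every point but that of Pcx at day 9 lies above 0, whereas in fatty acid oxidation Slc25a20 lies below 0 at days 3 and 6 and Eci1 at day 9.

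The changes separated the groups for most members. All 4 corticosterone libraries lay above all 4 vehicle libraries for 18, 18 and 17 TCA genes at days 3, 6 and 9, where 18.8, 23.8 and 16.6% of all genes did, and for 14, 15 and 11 fatty acid oxidation genes. The reverse, all corticosterone libraries below all vehicle libraries, held for no member but Pcx at day 9, where 19.7, 24.5 and 16.3% of all genes did so on the 3 days. The largest log2 change of any member was 0.96 ± 0.08 (1.94-fold, Hadhb at day 3). Of the TCA genes 17 were higher on all 3 days, every one except Pcx and Suclg1. Of the fatty acid oxidation genes 10 were: Cpt2, Acads, Acadl, Hadha, Hadhb, Hadh, Acaa2, Eci2, Etfa and Etfdh. The share of all genes higher on all 3 days was not counted. It can be no more than the 14.1% that were higher at day 9.

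The mean log2 CPM over the members shows the same course in each library. TCA genes averaged 7.46 ± 0.10 in corticosterone and 6.97 ± 0.03 in vehicle libraries at day 3, 7.46 ± 0.05 and 6.87 ± 0.03 at day 6, and 7.17 ± 0.01 and 6.83 ± 0.01 at day 9 (SD, n = 4 each). Fatty acid oxidation genes averaged 6.64 ± 0.16 and 6.28 ± 0.03 at day 3, 6.51 ± 0.06 and 6.05 ± 0.02 at day 6, and 6.21 ± 0.04 and 5.96 ± 0.03 at day 9 in corticosterone and vehicle libraries. No vehicle library reached a corticosterone library of its day in either mean. The TCA mean less the fatty acid oxidation mean of a library was 0.82 ± 0.07 in corticosterone and 0.69 ± 0.04 in vehicle libraries at day 3, 0.95 ± 0.02 and 0.82 ± 0.02 at day 6, and 0.96 ± 0.04 and 0.87 ± 0.03 at day 9. This difference is given as a description with no test, and its libraries overlapped between corticosterone and vehicle at days 3 and 9 and were apart at day 6.

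**Figure D2:**
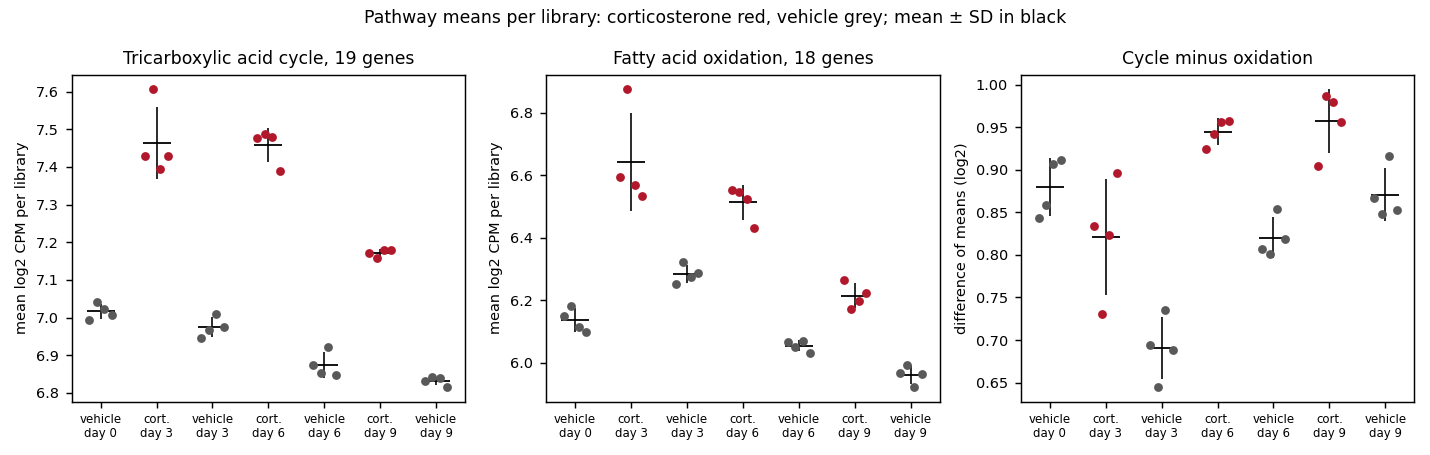
Mean log2 CPM over the 19 TCA genes and the 18 fatty acid oxidation genes in each of the 28 libraries, by group, with the difference of the means in the third panel, corticosterone libraries in red, vehicle libraries in grey and mean ± SD in black. In both means corticosterone libraries lie above vehicle libraries on each day, and at day 3 corticosterone replicate 4 stands highest.

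Corticosterone replicate 4 of day 3 stood apart. Its mean was 7.61 for TCA and 6.88 for fatty acid oxidation genes, against 7.39 to 7.43 and 6.53 to 6.596 in the other 3 libraries of its group. It was the highest of the 4 for 13 of 19 TCA and 16 of 18 fatty acid oxidation genes, and the lowest for Ogdh, Dld, Suclg2, Pcx and Cpt1a. Without it all 19 TCA genes still rose at day 3 (median 0.44), and 14 fatty acid oxidation genes did (median 0.25), with Eci1 no longer called (0.13, adjusted p = 0.0669 by limma). The changes of Sdhc (0.19 without it, 0.29 with it), Acads (0.18 and 0.27) and Hadh (0.12 and 0.19) moved by over 1.5 times. Slc25a20 was then called lower (-0.20, adjusted p = 0.00264). Calls of all genes were not counted for the fit without this library.

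At the entry of the cycle, citrate synthase (Cs), which condenses acetyl-CoA with oxaloacetate, rose by 0.31 ± 0.05 at day 3, 0.55 at day 6 and 0.48 at day 9. Of the isocitrate dehydrogenases, Idh3a encodes the catalytic subunit of the NAD-dependent enzyme. At day 3 it stood at 7.70, 7.84, 7.81 and 7.69 log2 CPM in corticosterone libraries and 7.20, 7.20, 7.16 and 7.18 in vehicle libraries. At day 6 it stood at 7.83, 7.85, 7.91 and 7.77, against 7.12, 7.10, 7.17 and 7.09. At day 9 it stood at 7.49, 7.47, 7.53 and 7.55, against 6.91, 6.99, 6.91 and 6.99. The groups were apart on each day, and the day 9 change was the largest of the cycle: 0.57 ± 0.04 at day 3, 0.72 ± 0.04 at day 6 and 0.56 ± 0.04 at day 9 (adjusted p = 3.4e-11 by limma).

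The other subunits of the NAD-dependent enzyme also rose on all 3 days. Idh3b, a regulatory subunit, changed by 0.36, 0.40 and 0.27 on the 3 days, and Idh3g, the other regulatory subunit, by 0.61, 0.68 and 0.43. Idh2, the NADP-dependent mitochondrial enzyme, changed by 0.57, 0.69 and 0.24. Its day 9 call (adjusted p = 0.0238 by limma) was lost without vehicle replicate 5 or 6 or corticosterone replicate 3 or 4 of that day, with adjusted p between 0.0513 and 0.0842. The decline of the Idh2 change between days 6 and 9 was itself called, at -0.45 ± 0.11 (adjusted p = 0.00273).

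The oxoglutarate dehydrogenase complex converts 2-oxoglutarate to succinyl-CoA. Its component Dld, the lipoamide dehydrogenase that pyruvate dehydrogenase shares, stood at 6.61, 6.45, 6.61 and 6.61 log2 CPM in corticosterone libraries of day 3, against 6.28, 6.32, 6.25 and 6.27 in vehicle libraries. At day 6 it stood at 6.84, 6.82, 6.76 and 6.77, against 6.16, 5.95, 6.23 and 6.17. Day 9 values of Dld were 6.37, 6.38, 6.47 and 6.402, against 6.20, 6.06, 5.99 and 6.04. Corticosterone libraries were above all vehicle libraries on each day, and most so at day 6. The change was 0.29 ± 0.06 at day 3, 0.67 ± 0.06 at day 6 and 0.33 ± 0.06 at day 9, and both steps were called as differences between effects, at 0.38 ± 0.08 (adjusted p = 0.00253 by limma) and -0.34 ± 0.08 (adjusted p = 0.00196).

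Ogdh, the decarboxylase of the complex, and Dlst, its succinyltransferase core, rose on all 3 days, by 0.24, 0.54 and 0.48 and by 0.34, 0.52 and 0.29. Succinyl-CoA ligase, which makes the nucleotide triphosphate of the cycle, has a shared alpha subunit, Suclg1, and a GTP- or ATP-forming beta subunit, Suclg2 or Sucla2. Sucla2 rose by 0.52, 0.56 and 0.44 and Suclg2 by 0.34, 0.58 and 0.31. Suclg1 rose by 0.51 at days 3 and 6, while its day 9 value was 0.19 ± 0.10 (adjusted p = 0.18 by limma).

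Succinate dehydrogenase oxidizes succinate and passes the electrons to ubiquinone. Its iron-sulfur subunit Sdhb showed the largest change of the TCA genes. At day 3 Sdhb stood at 7.54, 7.99, 7.58 and 7.53 log2 CPM in corticosterone libraries and at 6.70, 6.72, 6.88 and 6.76 in vehicle libraries. At day 6 it stood at 7.51, 7.53, 7.56 and 7.40, against 6.47, 6.53, 6.65 and 6.58. By day 9 Sdhb stood at 6.97, 6.85, 6.90 and 6.93, against 6.42, 6.41, 6.399 and 6.73. The groups did not overlap on any day, although vehicle replicate 6 of day 9 came near the treated libraries.

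The Sdhb change was 0.89 ± 0.08 at day 3 (1.86-fold, adjusted p = 5.72e-10 by limma), 0.94 ± 0.08 at day 6 and 0.42 ± 0.08 at day 9. The drop between days 6 and 9, -0.52 ± 0.11, was called (adjusted p = 0.000802). The other subunits rose less: the flavoprotein Sdha by 0.50, 0.58 and 0.36, and the membrane anchors Sdhc by 0.29, 0.48 and 0.30 and Sdhd by 0.52, 0.63 and 0.39. A difference between the subunits was not tested.

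Fumarase (Fh1), which hydrates fumarate, rose by 0.63, 0.68 and 0.35. Mdh2, the mitochondrial malate dehydrogenase that closes the cycle, had the highest level per kilobase of all 37 members in every group, for example 9.37 log2 CPM per kilobase in corticosterone libraries of day 3. At day 3 it stood at 9.90, 10.14, 9.75 and 9.85 log2 CPM in corticosterone libraries and at 9.19, 9.27, 9.26 and 9.26 in vehicle libraries. Day 6 values of Mdh2 were 9.89, 9.97, 9.79 and 9.73, against 9.21, 9.20, 9.25 and 9.19. Mdh2 at day 9 stood at 9.71, 9.58, 9.57 and 9.63, against 9.16, 9.21, 9.24 and 8.94. All treated libraries were above all vehicle libraries on each day. The change was 0.67 ± 0.07 at day 3, 0.64 at day 6 and 0.49 at day 9 (adjusted p = 3.98e-06 by limma). The cytosolic enzyme Mdh1, of the malate-aspartate shuttle, rose by 0.48, 0.55 and 0.33.

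Pyruvate carboxylase (Pcx), which refills the cycle with oxaloacetate, rose at day 3 and fell at day 9. At day 3 it stood at 5.97, 5.52, 5.80 and 5.84 log2 CPM in corticosterone libraries and at 5.16, 5.01, 5.11 and 5.23 in vehicle libraries. At day 6 it stood at 5.79, 5.77, 5.62 and 5.63, against 5.45, 5.49, 5.67 and 5.48. Pcx at day 9 stood at 5.57, 5.72, 5.76 and 5.68, against 5.92, 5.89, 5.93 and 5.86. Treated libraries lay above at day 3, overlapped with vehicle at day 6 and lay below at day 9, and it was the vehicle level that climbed over the days while the treated level stayed within 5.52 to 5.97.

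Pcx rose by 0.66 ± 0.08 at day 3 (adjusted p = 4.84e-08 by limma), was 0.18 ± 0.08 higher at day 6 (adjusted p = 0.0527, not called) and fell by 0.22 ± 0.08 at day 9 (adjusted p = 0.0319). The difference between the effects was -0.48 ± 0.11 from day 3 to day 6 and -0.40 ± 0.11 from day 6 to day 9 (adjusted p = 0.00371 and 0.00543). The fall at day 9 was lost with quantile normalization (adjusted p = 0.0606) and without vehicle replicate 3, 4 or 5 or corticosterone replicate 3 or 6, with adjusted p between 0.0563 and 0.113. The day 6 difference was called without vehicle replicate 5 or corticosterone replicate 5 or 6 (0.20 to 0.23), and with median centring, library weights or the compared groups alone (adjusted p 0.00175 to 0.0444).

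**Figure D3:**
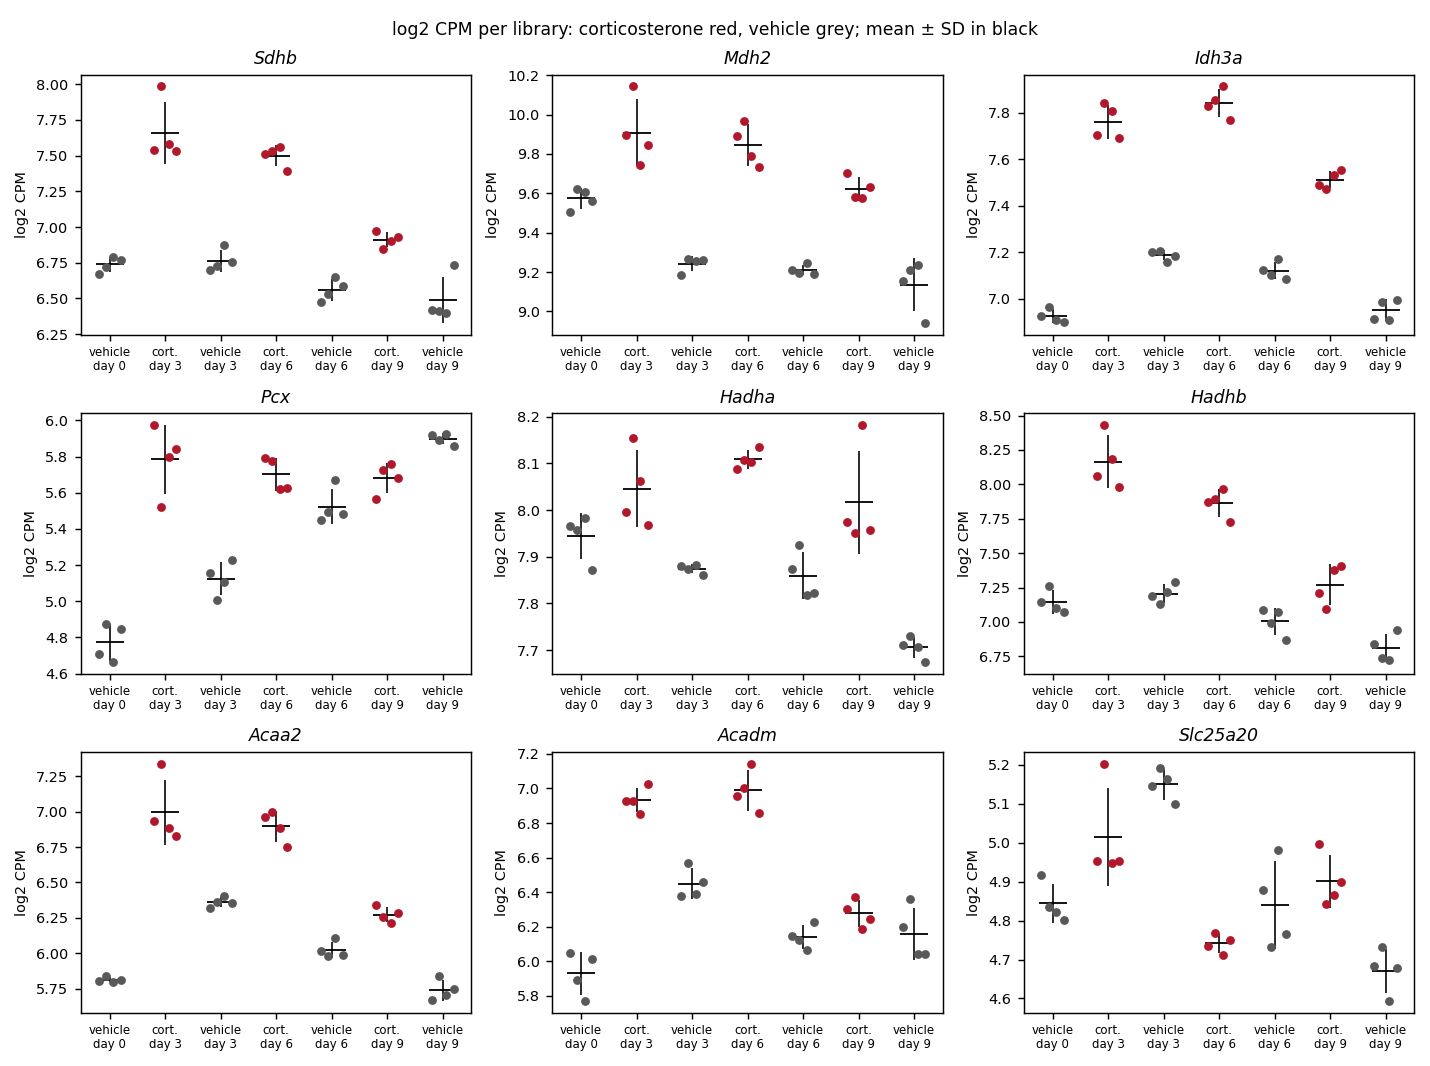
log2 CPM of Sdhb, Mdh2, Idh3a, Pcx, Hadha, Hadhb, Acaa2, Acadm and Slc25a20 in each library, by group, corticosterone in red, vehicle in grey, mean ± SD in black (axes do not start at 0). Treated libraries lie above vehicle libraries on all 3 days for every gene shown except Pcx, which overlaps at day 6 and is below vehicle at day 9, Acadm, which overlaps at day 9, and Slc25a20, which overlaps at days 3 and 6.

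At the entry of fatty acids, Cpt1a, the outer membrane carnitine palmitoyltransferase that sets the rate of entry, rose by 0.42 ± 0.06 at day 3 and 0.58 ± 0.06 at day 6 and was 0.16 ± 0.06 higher at day 9, which was not called (adjusted p = 0.0731 by limma). It was called without vehicle replicate 4 of that day (0.21, adjusted p = 0.0204) and with quantile normalization (0.19, adjusted p = 0.023). Cpt2, its inner membrane partner, rose by 0.58, 0.55 and 0.29. The Cpt2 call of day 9 was lost without vehicle replicate 4 or 6 or corticosterone replicate 3 or 5 (adjusted p 0.0721 to 0.0892). The carrier between them, Slc25a20, which exchanges acylcarnitine for carnitine, was at -0.14 ± 0.06 at day 3 (adjusted p = 0.0569), and -0.10 ± 0.06 at day 6 (adjusted p = 0.178), and rose by 0.23 ± 0.06 at day 9 (adjusted p = 0.00401). Its change between days 6 and 9, 0.33 ± 0.08, was called (adjusted p = 0.00328), whereas that of Cpt1a was -0.43 ± 0.09 (adjusted p = 0.000681).

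The 4 acyl-CoA dehydrogenases, each for a range of chain lengths, all rose at days 3 and 6. Medium-chain Acadm stood at 6.93, 6.93, 6.85 and 7.02 log2 CPM in corticosterone libraries of day 3, against 6.38, 6.57, 6.39 and 6.46 in vehicle libraries. Day 6 gave 6.95, 7.003, 7.14 and 6.86, against 6.14, 6.13, 6.06 and 6.23. On day 9 its values were 6.302, 6.37, 6.19 and 6.25, against 6.20, 6.36, 6.04 and 6.04. The groups were apart at days 3 and 6 and overlapped at day 9.

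The Acadm change was 0.48 ± 0.07 at day 3, 0.85 ± 0.07 at day 6 and 0.12 ± 0.07 at day 9 (adjusted p = 0.242 by limma). The drop between days 6 and 9, -0.73 ± 0.10, was the largest of any member (adjusted p = 3.52e-06). The step between days 3 and 6, 0.36 ± 0.10 (adjusted p = 0.0233), was lost without vehicle day 3 replicate 4, vehicle day 6 replicate 5 or corticosterone day 6 replicate 5 (adjusted p 0.0545 to 0.0581). Short-chain Acads rose by 0.27, 0.42 and 0.45, with no called difference between its effects (0.15 ± 0.09 from day 3 to day 6, adjusted p = 0.326, and 0.03 ± 0.09 from day 6 to day 9, adjusted p = 0.82). Long-chain Acadl changed by 0.18, 0.33 and 0.19 and very-long-chain Acadvl by 0.40, 0.40 and 0.14 (day 9 not called, adjusted p = 0.214). The day 9 call of Acadl was lost without vehicle replicate 6 (0.13, adjusted p = 0.0772).

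The trifunctional protein carries out the 3 later steps on long chains, with hydratase and dehydrogenase activity in its alpha subunit (Hadha) and thiolase activity in its beta subunit (Hadhb). Both genes rose on all 3 days. At day 3 Hadhb stood at 8.06, 8.43, 8.19 and 7.98 log2 CPM in corticosterone libraries and at 7.19, 7.13, 7.21 and 7.29 in vehicle libraries, while Hadha stood at 7.996, 8.15, 8.06 and 7.97, against 7.88, 7.87, 7.88 and 7.86. At day 6 Hadhb stood at 7.87, 7.89, 7.97 and 7.72, against 7.09, 6.99, 7.07 and 6.87. At day 9 it stood at 7.21, 7.09, 7.38 and 7.40, against 6.84, 6.74, 6.73 and 6.94. The treated libraries of Hadhb were well clear of vehicle at days 3 and 6 and nearer at day 9, whereas those of Hadha were above vehicle by a narrow margin at day 3.

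The Hadhb change was 0.96 ± 0.08 at day 3 (adjusted p = 2.51e-10 by limma), 0.86 ± 0.08 at day 6 and 0.46 ± 0.08 at day 9, and that of Hadha was 0.17 ± 0.05, 0.25 ± 0.05 and 0.31 ± 0.05. The decline of Hadhb between days 6 and 9, -0.40 ± 0.12, was called (adjusted p = 0.00959). The log2 ratio of Hadha to Hadhb within a library was -0.12 ± 0.11 in corticosterone and 0.67 ± 0.07 in vehicle libraries at day 3, 0.25 ± 0.12 and 0.85 ± 0.10 at day 6, and 0.75 ± 0.13 and 0.90 ± 0.12 at day 9 (SD, n = 4 each). The ratios of treated and vehicle libraries did not overlap at days 3 and 6. The exact two-sided permutation test gave p = 0.0286 on both days, the smallest it can give with 4 against 4, and p = 0.171 at day 9. Adjusted over the 27 ratio tests of 9 gene pairs on 3 days, the smallest value was 0.110, so no ratio passed.

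The genes of the trifunctional protein lie head to head on chromosome 5, and the sequence between them is shown because both transcribe away from it. In RefSeq (GRCm38.p6) their start sites are 273 bases apart, at 30154980 on the minus strand for Hadha and 30155253 on the plus strand for Hadhb, and in the GENCODE M21 annotation the genes end and begin 85 bases apart. Those bases, chr5:30155163-30155247 on the plus strand, read as follows, with capitals for the part that lies in the promoter windows of both genes.
Hadha-Hadhb: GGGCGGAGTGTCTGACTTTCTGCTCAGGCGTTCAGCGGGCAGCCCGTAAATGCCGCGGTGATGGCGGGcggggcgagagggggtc
The windows, from 250 bases before to 50 after each start, share 228 bases with a GC content of 57.0%.

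Other pairs were compared in the same way. At p = 0.0286 by the exact permutation test (0.110 adjusted) stood the log2 ratio of Acadm to Acads, 0.26 ± 0.14 in corticosterone and -0.17 ± 0.09 in vehicle libraries at day 6 and -0.22 ± 0.09 and 0.11 ± 0.15 at day 9, so that its difference had opposite signs on the 2 days. That of Idh2 to Idh3a at day 9 was 0.66 ± 0.11 in corticosterone and 0.98 ± 0.09 in vehicle libraries. That of Eci1 to Eci2 was -0.70 ± 0.07 and -0.48 ± 0.05 at day 6 and -0.67 ± 0.09 and -0.34 ± 0.18 at day 9.

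Hydration, dehydrogenation and thiolysis of shorter chains are the work of Echs1, Hadh and Acaa2. The thiolase Acaa2 stood at 6.93, 7.34, 6.89 and 6.83 log2 CPM in corticosterone libraries of day 3, against 6.32, 6.36, 6.403 and 6.35 in vehicle libraries. At day 6 it stood at 6.96, 6.996, 6.88 and 6.75, against 6.01, 5.98, 6.105 and 5.99. At day 9 it stood at 6.34, 6.26, 6.21 and 6.28, against 5.67, 5.84, 5.70 and 5.74. Treated libraries were above all vehicle libraries on each day, and the level of both groups was lower at day 9 than at days 3 and 6.

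The Acaa2 change was 0.64 ± 0.07, 0.87 ± 0.07 and 0.54 ± 0.07 at days 3, 6 and 9 (adjusted p = 3.52e-06 at day 9 by limma). The hydratase Echs1 rose by 0.57 and 0.64 and was at 0.08 ± 0.06 at day 9 (adjusted p = 0.337), and the difference from day 6, -0.56 ± 0.09, was called. The dehydrogenase Hadh changed by 0.19, 0.23 and 0.33.

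Auxiliary enzymes bring unsaturated chains into the same pathway. The isomerase Eci2 rose by 0.41, 0.49 and 0.25, its day 9 call being lost without vehicle replicate 5 or 6 or corticosterone replicate 3 or 6 (adjusted p 0.0585 to 0.0776 by limma). The isomerase Eci1 rose by 0.27 at day 3 and 0.26 at day 6, the second call being lost without corticosterone replicate 1 (adjusted p = 0.0508), and was at -0.08 ± 0.09 at day 9 (adjusted p = 0.558). The dienoyl-CoA reductase Decr1 was called on no day, at 0.05 ± 0.12, 0.23 ± 0.12 and 0.01 ± 0.12 (adjusted p = 0.759, 0.113 and 0.973).

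Electron transfer flavoprotein, made of Etfa and Etfb, and its ubiquinone oxidoreductase Etfdh carry the electrons of the dehydrogenases to the respiratory chain. Etfdh stood at 7.22, 7.28, 7.17 and 7.18 log2 CPM in corticosterone libraries of day 3, against 6.72, 6.71, 6.72 and 6.67 in vehicle libraries. At day 6 it stood at 7.22, 7.20, 7.23 and 7.11, against 6.35, 6.39, 6.37 and 6.49. Etfdh at day 9 stood at 6.75, 6.71, 6.76 and 6.78, against 6.34, 6.35, 6.31 and 6.396. The groups were far apart on every day, with little spread inside each.

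The Etfdh change was 0.51 ± 0.04 at day 3, 0.79 ± 0.04 at day 6 (1.73-fold, adjusted p = 9.36e-15 by limma) and 0.40 ± 0.04 at day 9. Both steps were called, 0.28 ± 0.06 (adjusted p = 0.00179) and -0.39 ± 0.06 (adjusted p = 6.79e-06). Etfa rose by 0.29, 0.36 and 0.27. Etfb had the widest spread of the members: 0.21 ± 0.16 and 0.24 ± 0.16 at days 3 and 6, not called, and 0.42 ± 0.16 at day 9 (adjusted p = 0.0451). That call was lost without any 1 of 6 libraries, which were the 4 vehicle libraries and corticosterone replicates 3 and 6 of day 9 (adjusted p 0.0543 to 0.16), and also on the log2(CPM + 5) scale (adjusted p = 0.053) and without the intensity trend (adjusted p = 0.055).

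How the effects moved with time can be read from the differences between effects, which share libraries with the daily comparisons. From day 3 to day 6 the effect grew for 3 TCA genes (Cs, Ogdh and Dld), shrank for Pcx, and grew for 2 fatty acid oxidation genes (Acadm and Etfdh), where 4.21% of all genes showed a called increase and 4.90% a decrease (9.11% in all). Without corticosterone replicate 4 of day 3, 7 TCA and 4 fatty acid oxidation genes showed an increase, Idh3a, Idh3b, Sdhc, Sdhd, Acads and Acaa2 being added. How many of all genes showed one without that library was not counted, so these larger counts have no background. The increase of Cs (adjusted p = 0.0382 by limma) was lost without any 1 of 10 of the 16 libraries and that of Ogdh (adjusted p = 0.0289) without any 1 of 6.

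From day 6 to day 9 the log2 effect was lower for 9 TCA genes (Idh2, Idh3a, Dlst, Dld, Sdha, Sdhb, Sdhd, Mdh1 and Pcx) and 7 fatty acid oxidation genes (Cpt1a, Acadm, Hadhb, Echs1, Acaa2, Eci1 and Etfdh), and higher for Slc25a20, where 14.9% of all genes showed a called decrease and 16.0% an increase (30.9% in all). The estimates for Pcx, Eci1 and Slc25a20 lay on opposite sides of 0 on these days, as given above. None of them was called on both days, so a reversal of direction is not shown. The median difference was -0.23 for TCA and -0.25 for fatty acid oxidation genes, against -0.00 for all genes. The decreases of Sdha (lost without any 1 of 11 of the 16 libraries), Eci1 (10) and Idh3a (8) were the least stable, and that of Dlst was lost without vehicle day 9 replicate 3 or corticosterone day 6 replicate 3.

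In vehicle cells most genes tested changed from day 0 without the hormone, and so did most members. The comparisons of days 3, 6 and 9 with day 0 share the day 0 libraries. At day 3, 6 TCA genes were higher and 7 lower than at day 0, with 10 fatty acid oxidation genes higher and 2 lower, where 36.5% of all genes were higher and 32.7% lower (69.2% in all). At day 6, 5 TCA genes were higher and 10 lower and 4 fatty acid oxidation genes higher and 6 lower, against 36.4 and 33.7% of all genes (70.1% in all). At day 9, 3 TCA genes were higher and 11 lower and 3 fatty acid oxidation genes higher and 10 lower, against 35.9 and 34.6% of all genes (70.4% in all). Taken over both pathways, the share of members called in either direction was near that of all genes on all 3 days. At day 6 the pathways differed, with 4 TCA and 8 fatty acid oxidation genes not called. At day 9 more members were lower than higher, whereas rises and falls of all genes were about even.

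The largest falls in vehicle at day 9 against day 0 were those of Etfb (-0.89 ± 0.16), Cs (-0.76 ± 0.05), Suclg2 (-0.68 ± 0.09), Dld (-0.67 ± 0.06), Acads (-0.48 ± 0.06), Dlst (-0.47 ± 0.05), Eci2 (-0.45 ± 0.08) and Mdh2 (-0.44 ± 0.07), all called by limma. Pcx went the other way and rose by 0.35 ± 0.08, 0.75 ± 0.08 and 1.12 ± 0.08 over days 3, 6 and 9 (adjusted p = 6.59e-13 at day 9). Its day 0 libraries stood at 4.71, 4.87, 4.66 and 4.85 log2 CPM, below every later library. At day 3 Cpt1a rose by 0.60 ± 0.06, Acaa2 by 0.55 ± 0.07 and Acadm by 0.52 ± 0.07 in vehicle. At day 9 Cpt1a stood at -0.05 ± 0.06 and Acaa2 at -0.07 ± 0.07, neither called, while Acadm was still higher, by 0.23 ± 0.07 (adjusted p = 0.00645 by limma). With quantile normalization the sign of the vehicle change turned for Mdh2 and Hadha at day 3 and for Ogdh and Hadha at day 6. Of these changes only that of Mdh2 was called in the reported fit.

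**Figure D4:**
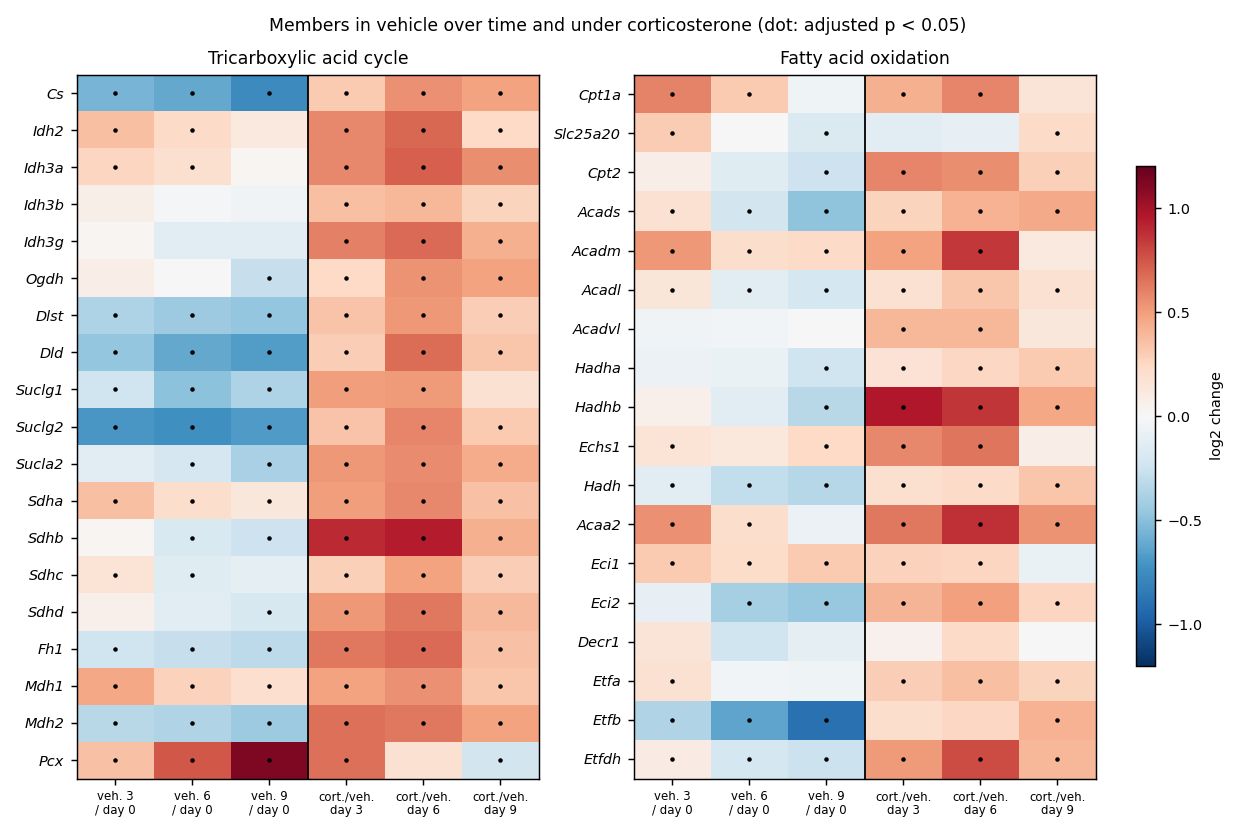
Heat map of the log2 change of each member (rows, in pathway order) in vehicle libraries of days 3, 6 and 9 against day 0 and in corticosterone against vehicle libraries of days 3, 6 and 9, with a dot where the adjusted p is under 0.05. The corticosterone columns are of one sign for nearly all rows, and the vehicle columns are mixed at day 3 and mostly negative at day 9.

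Promoters of the members, most of which moved together, were searched for short motifs. RefSeq windows (GRCm38.p6) were found for 33 of the 37 members (Acaa2, Decr1, Idh3a and Sdhc were not matched). GCATGCGC, in either orientation, part of the binding motif of nuclear respiratory factor 1, lay in the windows of 5 of the 33 (15.2%; Ogdh, Sdhb, Acadm, Etfa and Etfdh) and of 5.92% of the 10074 measured genes with a window. The stretches that hold it are given with the motif in capitals, each on the strand of its gene: chr11:6292532-6292561 plus strand for Ogdh, chr4:140961206-140961235 plus strand for Sdhb, chr3:153944783-153944812 minus strand for Acadm, chr9:55512330-55512359 minus strand for Etfa and chr3:79628877-79628906 minus strand for Etfdh, where the 2 orientations overlap.
Ogdh: ctaggtgttgtGCGCATGCgtaactcaact
Sdhb: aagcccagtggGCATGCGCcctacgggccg
Acadm: gggagcaggacGCATGCGCagagggccttc
Etfa: gagggcgtggcGCGCATGCcagcgtctcgg
Etfdh: atgcttctaggGCGCATGCGCacacgcgag
Of these, Sdhb, Acadm and Etfdh were among the members with the largest changes at day 6 (0.94, 0.85 and 0.79), and Ogdh (0.54) and Etfa (0.36) were not. Hadhb and Acaa2 were also among the largest at day 6, but the Hadhb window held no match and Acaa2 had no window. Ogdh had several windows and so more places for a match. A link between the motif and the size of the change was not tested.

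The shares of the other motifs are given in the same way, and no share was tested. TCAAGGTCA, the binding motif of estrogen-related receptors, lay in the window of 1 of the 33 members (3.03%; Sdhd) and of 0.308% of measured genes. AGAACA, part of the binding motif of the glucocorticoid receptor, lay in windows of 3 of the 33 members (9.09%; Sucla2, Suclg1 and Hadh), against 15.1% of measured genes. The cyclic AMP response element TGACGTCA lay in 6.06% (Mdh2 and Ogdh), against 3.52%, the E-box CACGTG in 6.06% (Ogdh and Pcx), against 11.6%, and the CCAAT box in 51.5%, against 43.1%. A match is a string of letters in a 300-base window and was not tested for binding.

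Genes next to the pathways, from lists that hold other enzymes and carriers, moved in part with them. Of 22 enzymes and carriers around the TCA cycle, 10, 11 and 11 were higher and 6, 5 and 2 lower at days 3, 6 and 9 (median 0.16, 0.28 and 0.22), where 23.3, 22.9 and 14.1% of all genes were higher and 25.6, 24.3 and 14.4% lower. Pdha1 and Dlat, of pyruvate dehydrogenase, which feeds the cycle, rose by 0.74, 0.90 and 0.36 and by 0.51, 0.76 and 0.32. Me2, the mitochondrial malic enzyme, fell by 0.49, 0.53 and 0.24 on the 3 days.

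Of 23 measured genes around fatty acid oxidation, 14, 13 and 4 were higher and 4, 4 and 1 lower (median 0.27, 0.28 and 0.00). Of all genes 23.3, 22.9 and 14.1% were higher and 25.6, 24.3 and 14.4% lower, and the day 9 count of higher genes is near its share. The acetyl-CoA acetyltransferase Acat1 rose by 0.88, 0.98 and 0.48 and the acyl-CoA dehydrogenase family genes Acad10 by 0.88 and 0.37 and Acad12 by 1.46 and 1.13 at days 3 and 6, both at no called change at day 9 (-0.11 and 0.00). The acyl-CoA synthetase Acsl3, which activates fatty acids, fell by 1.01 at day 3 and 0.35 at day 9, with -0.25 at day 6 (adjusted p = 0.0652 by limma).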

How the data were processed

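The authors deposited normalized log2 CPM, as the file name says. The submitters' processing notes name kallisto without a version, edgeR 3.40.1, limma 3.54.0 and, as the build, mm10, without a role for any of them. The prior count, the annotation and the normalization method are not given in the sources used here, and counts and depth per library were not used here. Per the labels, libraries came from 500 ng of RNA with a stranded kit. The table held 13129 entries. The 1 without a symbol, 0.0267 to 0.0698% of CPM, was left out. Requiring 4 or more libraries with log2 CPM above 0 removed 0 genes. No library was a copy of another (root mean square log2 difference of at least 0.282).

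Group means were fitted over all 28 libraries (21 residual degrees of freedom) with limma 3.58.1 in R 4.3.3, with an intensity trend, after a test on simulated data. Ratios within a library were compared by exact two-sided permutation of 4 against 4 libraries (70 splits). Levels per kilobase used GENCODE M21 transcript lengths. Members and lists were chosen with earlier results of these data known. Library values of days 3, 6 and 9 are given for the members with the 2 largest called changes in each direction per pathway and day, those called against most of their pathway, and the 2 with the smallest p in each difference between effects, and from each other list up to 4 genes with the smallest p are named; some genes of these lists are not reported here. Hadha was added after its values were seen. Choices were varied singly: the filter (log2 CPM above 2, or none), pseudocounts of 1 and 5 CPM, scaling by library medians or quantiles, the libraries in the fit (the compared groups alone), no trend, robust moderation, library weights, replicate blocks (statmod 1.5.0), an adjusted p under 0.01 and leaving out each library.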

Additional observations from a re-analysis of the deposited data

Results flagged for a closer look

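The 9 members searched here are those whose library values are given, except Hadha, which was added later. Their groups of 4 libraries, and those of the pathway means, were searched for single libraries far from the other 3 of their group (Dixon's test). Of 77 groups 6 held one, and chance gives about 1 in 20. They were Dld at 6.451 log2 CPM in corticosterone day 3 (replicate 4, below the others), Sdhb at 7.985 in corticosterone day 3 (replicate 4, above), Sdhb at 6.733 in vehicle day 9 (replicate 6, above), Etfdh at 6.667 in vehicle day 3 (replicate 6, below), Mdh2 at 9.185 in vehicle day 3 (replicate 3, below) and the TCA mean at 7.39 in corticosterone day 6 (replicate 6, below).

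The corticosterone effect of some members differed between days by limma's test of the difference itself (adjusted p under 0.05). From day 3 to day 6 the effect of Dld grew by 0.3776, that of Acadm by 0.3641 and that of Etfdh by 0.2761, while that of Pcx changed by -0.4799. From day 6 to day 9 the effect changed by -0.3358 for Dld, -0.5189 for Sdhb, -0.7313 for Acadm and -0.3857 for Etfdh. The causes were not tested.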

How the results depend on the processing

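Of 6808 member values under the alternatives, 6513 kept their side of the threshold, 209 lost a call and 82 gained one. Of the 6513, 89 had another sign and were called in neither fit, among them Decr1 at day 3 (-0.07 without corticosterone replicate 4). In 4, a value called in the reported fit or under the alternative turned sign. All were under quantile normalization of vehicle against day 0: Mdh2 0.040 and Hadha 0.15 at day 3, Ogdh 0.19 and Hadha 0.10 at day 6. Of these only Mdh2 was called in the reported fit. The cause was not tested. The median of all genes moved by under 0.1 under each alternative that kept all libraries, and was not computed without single libraries. Corticosterone counts that moved were the fatty acid oxidation genes lower at day 3, 1 with library weights (0 to 1 leaving out single libraries), and the TCA genes lower at day 9, 0 with quantile normalization or adjusted p under 0.01 (0 to 1 leaving out single libraries). In vehicle against day 0, the fatty acid oxidation genes at day 3 numbered 6 higher at adjusted p under 0.01, and 0 lower with quantile normalization, 1 without trend and 0 at adjusted p under 0.01 (0 to 2 leaving out single libraries). At day 6 the TCA genes lower were 6 with quantile normalization and the fatty acid oxidation genes higher 1 at adjusted p under 0.01. For the effect from day 3 to day 6, the TCA genes higher were 7 with library weights, 1 at adjusted p under 0.01 and 1 to 7 leaving out single libraries, and the fatty acid oxidation genes higher were 8, 1 and 1 to 4. From day 6 to day 9, the TCA genes lower were 15 with library weights and 4 at adjusted p under 0.01, and the fatty acid oxidation genes lower were 11 with library weights. Library weights raised the calls of all 13128 genes as well. From day 3 to day 6, 912 were higher with weights and 553 in the reported fit. From day 6 to day 9, 2800 were lower with weights and 1961 in the reported fit. Calls of all genes were not counted at adjusted p under 0.01 or without single libraries. Over 10 pairs of the same replicate number and day, deviations correlated between -0.03 and 0.17, with 4 over 0.1. So few and weak correlations cannot decide whether the numbers pair the samples, and the labels do not say what a number marks. With the replicate number as a fixed block, 1 fatty acid oxidation gene instead of 2 was lower in vehicle at day 3. The block moved no other member count by over 1.5 times, but under it Cpt1a at day 9 was called (0.16, adjusted p = 0.0229), Etfb at day 9 was not (adjusted p = 0.054), and of the effects from day 6 to day 9 Fh1 and Acadvl were called lower and Eci1 was not. Fitting only the groups compared ended the day 3 calls of Acadl, Hadh and Eci1 (adjusted p 0.0698 to 0.125) and the increase of Ogdh from day 3 to day 6 (0.0524), and quantile normalization ended the decreases of Idh3a and Sdhd from day 6 to day 9 (0.096 and 0.0715). No ratio can pass unless many of the 27 reach the smallest p together, so their alternatives bear on no call. Depth is unknown, so counting error could not be given.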

Other observations

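Regulators of mitochondrial gene expression and fuel choice were read from a list of their own. Of 16 measured regulators 7, 5 and 4 were higher and 1, 3 and 2 lower at days 3, 6 and 9 (median log2 change 0.11, 0.14 and 0.05), where 23.3, 22.9 and 14.1% of all genes were higher and 25.6, 24.3 and 14.4% lower. The counts of day 6 are close to those shares. Esrra, a nuclear receptor that acts with the coactivator Ppargc1a on mitochondrial genes, rose by 0.86 ± 0.06, 0.98 ± 0.06 and 0.26 ± 0.06, and Ppargc1a rose by 1.44, 1.73 and 0.70. The related coactivator Ppargc1b went the other way, at -0.86 and -0.47 on days 3 and 6, with -0.36 on day 9 (adjusted p = 0.072 by limma). The pyruvate dehydrogenase kinases, which switch pyruvate dehydrogenase off, split. Pdk4 rose by 2.59 ± 0.17, 2.38 ± 0.17 and 0.52 ± 0.17, whereas Pdk1 stood at 0.06 ± 0.12 at day 3 (adjusted p = 0.718), -2.53 ± 0.12 at day 6 and -2.05 ± 0.12 at day 9, called by limma at days 6 and 9, after the hormone was removed, and not at day 3.

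Of 4 measured genes of ketone body metabolism, Bdh1, the mitochondrial 3-hydroxybutyrate dehydrogenase, rose by 1.73 ± 0.14, 1.58 ± 0.14 and 1.06 ± 0.14, and Oxct1, which reactivates ketone bodies, rose by 0.34 at day 6 and 0.42 at day 9. Of 10 measured genes of peroxisomal oxidation 6, 6 and 2 were higher and 1, 0 and 1 lower, with medians of 0.26, 0.21 and 0.01. Of all genes 23.3, 22.9 and 14.1% were higher and 25.6, 24.3 and 14.4% lower, and the counts of day 9 are near these shares. The bifunctional enzyme Hsd17b4 rose by 0.38, 0.54 and 0.30.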
